A study of Homo sapiens with 6 samples.

Results

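The mitochondrial ribosomal proteins, the nuclear-encoded proteins of the ribosome inside mitochondria, were examined across 6 RNA-seq libraries of Jurkat cells, an established human line from a T cell leukaemia. Members were chosen by symbol, with earlier results of these data known. A row of the expression table counted if its symbol began with MRPL or MRPS followed by a digit, and pseudogenes and readthrough genes were left out. This gave 79 of the 39012 rows, with 78 symbols because MRPS5 stands on 2 rows. Of the 79 rows, 49 were named for the large subunit (MRPL) and 30 for the small subunit (MRPS). A row entered the test if it had a mean of at least 10 reads per library, which 75 members passed, 48 large and 27 small.

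One group of 3 libraries came from Jurkat cells with stable overexpression of SCML4, a protein of the Polycomb group family. The other group of 3 came from control Jurkat cells with an empty vector (EV). Both groups were stimulated in the same way, with 100 ng/ml PMA and 1 µM ionomycin for 6 h, which together drive protein kinase C and calcium signalling, so no unstimulated state was compared. The labels give neither the promoter that drives SCML4 nor whether a line is 1 clone, and they leave unsaid whether replicates are separate cultures. The p-values therefore measure only how far these 6 libraries scatter, and that scatter may be technical.

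Mitochondrial ribosomes translate the few mRNAs of the mitochondrial genome, which encode membrane subunits of the respiratory chain and the ATP synthase. Their 2 subunits are built from rRNAs transcribed inside the organelle and from proteins that are made in the cytosol and imported. The small subunit binds the mRNA and reads its codons, and the large subunit joins the amino acids and holds the exit tunnel. Some of the proteins have bacterial homologues and others are found only in mitochondrial ribosomes. Activated T cells are known to raise mitochondrial translation as they grow.

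Promoter letters, which the choice by symbol did not use, were counted in the family. The core letters bound by ETS-family factors, CCGGAAG, were searched on both strands from 250 bases before to 50 bases after the start site in the RefSeq promoter table (build GRCh38.p14), which held 69 of the 78 symbols, with up to 4 start sites each, and a symbol counted if any of its windows held the letters. They lay in 30 of these 69 promoters (43.5%), against 22.8% of 10234 promoters of tested genes and 12.2% of all 27305 promoters. The letters AAGATGGC, read by YY1, lay in 21 of 69 promoters (30.4%) against 6.62% of promoters of tested genes. The NRF1 letters, GCGCA followed directly by TGCGC, lay in 1 of 69 (1.45%) against 2.86%. The ETS and YY1 letters can overlap, since AAG ends the first and begins the second, but in none of the 8 promoters that held both did they do so. At least 1 of the 3 motifs was present in 27 of 42 large-subunit and 17 of 27 small-subunit promoters. The 120 bases before a start of 4 members with ETS letters are given. These are the 4 of smallest p, among the named members below, whose stretch held any of the searched letters. MRPL54, MRPS34 and MRPS22 were on the higher side and MRPL3 on the lower. Other named members also held ETS letters in their promoters. MRPS22 has 3 start sites, and the first whose stretch held the letters is given. Capitals mark CCGGAAG or its reverse complement, and each sequence is read 5′ to 3′ on the gene's strand.
MRPL54 (chr19:3762562-3762681, plus strand): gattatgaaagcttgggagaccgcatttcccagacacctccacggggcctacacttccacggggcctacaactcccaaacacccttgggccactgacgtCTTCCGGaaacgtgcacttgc
MRPS34 (chr16:1773135-1773254, minus strand): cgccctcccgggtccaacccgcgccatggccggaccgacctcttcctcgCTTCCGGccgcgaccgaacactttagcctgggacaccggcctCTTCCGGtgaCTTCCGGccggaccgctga
MRPS22 (chr3:139343874-139343993, plus strand): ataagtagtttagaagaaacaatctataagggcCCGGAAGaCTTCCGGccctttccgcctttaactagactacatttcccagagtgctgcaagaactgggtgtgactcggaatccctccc
MRPL3 (chr3:131502972-131503091, minus strand): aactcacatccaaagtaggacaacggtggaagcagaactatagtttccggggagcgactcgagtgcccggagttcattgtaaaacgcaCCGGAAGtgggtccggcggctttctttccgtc
The MRPS34 stretch held the letters at 3 places and the MRPS22 stretch held them on both strands side by side. A match of letters is a description and not a bound site. Among members in the test, the median log2 difference between SCML4 and EV cells was 0.04 for the 28 with ETS letters and 0.05 for the 38 without them.

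Shared positions in the genome were also counted. In GENCODE 29, 17 of the 78 symbols (21.8%) had a divergent neighbour whose start lay within 1000 bases, against 7.37% of 19969 protein-coding genes. The latter include genes too low to be tested here, and the share over tested genes was not worked out. MRPS11 of the small subunit and MRPL46 of the large subunit are such a pair with each other. MRPL18 faces TCP1, a subunit of a cytosolic chaperonin.

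The libraries held 9064152, 10336597 and 8953671 reads in SCML4 and 9631850, 8968067 and 9680394 reads in EV. Levels are given as CPM, counts per 1000000 reads of the library, from read numbers worked out from the deposited FPKM. SCML4 itself stood at 62.9, 63.6 and 56.5 CPM in the SCML4 libraries, against 0.727, 0.223 and 0.103 CPM in EV, which matches the labels. It was the 1 gene of 14160 past an adjusted p of 0.05 (limma-trend, Benjamini-Hochberg over all genes, log2 difference 5.55, SE 0.19). All 10 T cell markers looked for were measured, at 74.6 to 712 CPM, and of 8 markers of other cells 3 had no reads and the others stayed at or below 2.68 CPM. EV replicate 1 stood apart from its group, with a chi-square per gene of 11.0 and 11.1 against the other EV libraries, which differed from each other by 2.60, while pairs of SCML4 libraries differed by 3.16 to 5.64. Results are therefore also given without it.

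Together the members took 0.395% ± 0.021 of the reads in SCML4 libraries and 0.384% ± 0.020 in EV libraries (SD, n = 3 each). The large-subunit members summed to 2595, 2464 and 2314 CPM in SCML4 and 2262, 2380 and 2545 CPM in EV. The small-subunit members summed to 1563, 1483 and 1432 CPM in SCML4 and 1376, 1483 and 1489 CPM in EV. Both sums overlapped between the groups, and the spread inside each group was wider than the gap between their means. Without EV replicate 1 the sum over both subunits averaged 3950 CPM in SCML4 and 3948 CPM in EV. The ratio of large to small subunit transcripts was 1.66, 1.66 and 1.62 in SCML4 libraries and 1.64, 1.60 and 1.71 in EV libraries. This ratio therefore differed between the groups by less than the spread between libraries. Subunits go by symbol here and in the medians below. The small-subunit sum thus holds MRPS30 and MRPS18A, which structures of the ribosome place in the large subunit. It also holds MRPS36, placed in neither. MRPS30 averaged 106 CPM in SCML4 and 109 CPM in EV. In bulk RNA, fewer cells that express a gene and less RNA per cell cannot be told apart.

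Levels between genes were compared per length, as reads per kilobase of annotated exon per 1000000 reads, averaged over the 6 libraries. The median was 16.6 for 48 large-subunit genes and 18.2 for 27 small-subunit genes. In the large subunit the highest level was that of MRPL57, at 69.9, followed by MRPL18 at 61.6. The lowest were MRPL48 at 1.10 and MRPL46 at 1.92. In the small subunit MRPS16 led with 56.5, followed by MRPS21 with 49.5, and the lowest were MRPS18C with 1.47 and MRPS11 with 3.08. Levels per annotated length inside each subunit thus ranged over more than 1 order of magnitude. The length joins the exons of all annotated transcripts, so a long annotation lowers the level. It was 4386 bases for MRPL48, 6432 for MRPL46, 4866 for MRPS18C and 5625 for MRPS11. For the highest genes it was 2246 (MRPL57), 1375 (MRPL18), 2794 (MRPS16) and 1641 (MRPS21). The part of annotated length in this order was not tested. Levels were lower where exons are shared with another gene. The 11 members with at least 20% of their exon bases shared with another gene had a median of 10.7, against 18.5 for the other 64. The part of overlap in these levels was not tested.

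**Figure D1:**
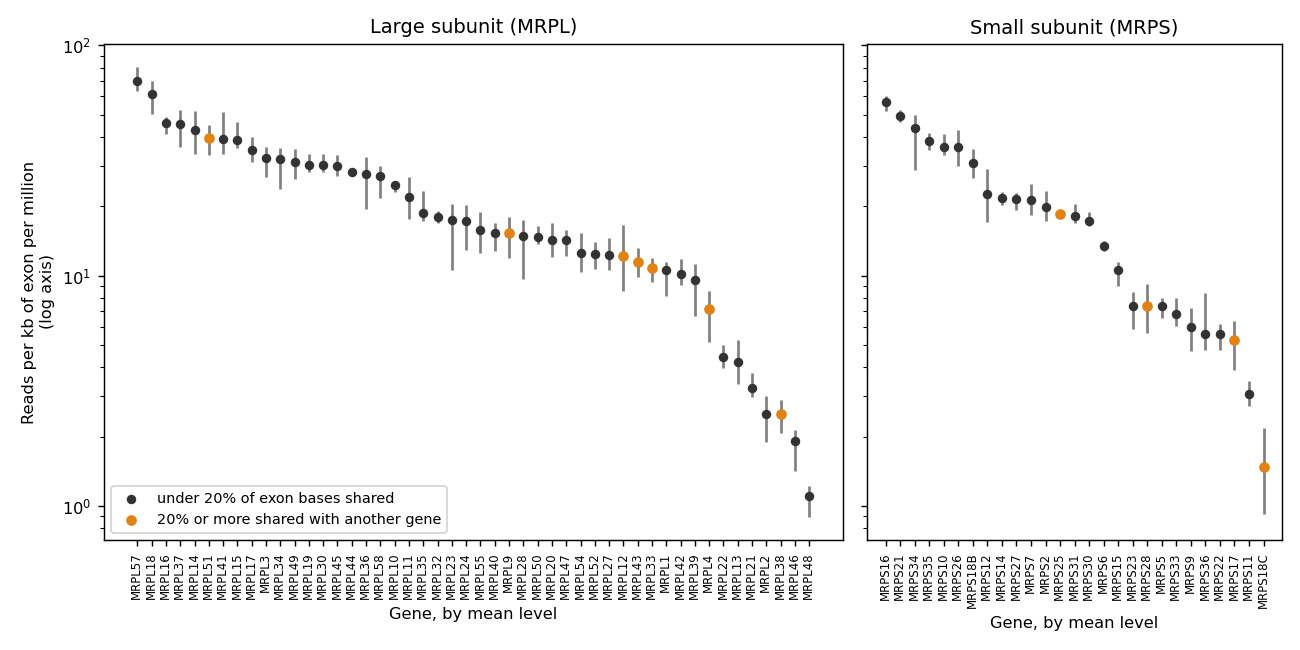
Level of each member per length (reads per kilobase of exon per 1000000 reads, log axis) in the large subunit (left) and the small subunit (right), in order of the mean. Points are means over 6 libraries, lines run from the lowest to the highest library, and orange points have at least 20% of exon bases shared with another gene; levels run between 1.10 for MRPL48 and 69.9 for MRPL57.

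The other 4 rows did not reach 10 reads on average. MRPL53 had no read in any library, which allows up to 3 reads or 0.290 to 0.335 CPM per library, and 45.2% of its exon bases are shared with CCDC142 on the same strand, a gene that averaged 24.3 CPM in SCML4 and 27.3 CPM in EV. MRPS24 had 4, 7 and 5 reads in SCML4 and 8, 7 and 8 in EV, and its readthrough gene URGCP-MRPS24, with which it shares 23.2% of its exon bases, had none. MRPS18A had 11, 9 and 10 reads in SCML4 and 7, 5 and 8 in EV, and shares 47.0% of its exon bases with RSPH9 on the opposite strand. The first row of MRPS5 held 2 reads in all, and the second row carried the gene's reads. These low counts say nothing firm of the genes' true levels, and no fold is given for them.

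No member passed the test between SCML4 and EV. With limma-trend and Benjamini-Hochberg adjustment over all genes, 0 of 75 members had an adjusted p under 0.05, against 0.00706% of all genes tested, and the lowest adjusted p of a member was 0.866. Only MRPL54 and MRPL12 had an unadjusted p under 0.05, 2 of 75 members and both higher in SCML4, against 5.27% of all genes in either direction. The fit by limma-voom, with or without weights for library quality, also called 0 members. The log2 differences ran between -0.36 and 0.44, and 68 of 75 lay within 0.25 of 0. The half-width of a member's 95% interval had a median of 0.26 and ran between 0.16 and 0.48. This interval belongs to an unadjusted p, and the adjusted threshold asks for more. The widest intervals reached down to -0.84 and up to 0.80.

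More members lay on the higher side in SCML4 cells than on the lower, and single libraries moved this count in both directions. In the large subunit 28 of 48 members had a difference above 0, with a median of 0.05. In the small subunit 19 of 27 had one, with a median of 0.04. Among all genes tested 52.4% were above 0, with a median of 0.01. Without EV replicate 1, 23 of 48 large-subunit and 15 of 27 small-subunit members were above 0, with medians of -0.0040 and 0.012, against 51.7% and a median of 0.01 for all genes. Without SCML4 replicate 1, the count above 0 over both subunits was 34 of 75, against 53.6% of all genes. The medians were then -0.0068 for the large and -0.020 for the small subunit. Over all libraries left out in turn, this count reached 55 of 75, and the medians reached 0.11 for the large and 0.09 for the small subunit.

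The plot of deviations by library gives each gene's distance from its own mean, and it shows the medians of both subunits moving together by library. Single members did not all follow. EV replicate 1 had the lowest value of a member in 34 of 75 cases (45.3%), against 28.3% of all genes, and the highest in 8 (10.7%), against 27.9%. SCML4 replicate 3 had the lowest value in 26 of 75 cases (34.7%), against 15.9% of all genes, and the highest in 5 (6.67%), against 20.2%. SCML4 replicate 1 had the highest value in 24 cases (32.0%), against 15.8% of all genes. The medians of the large and the small subunit put the 6 libraries in the same order, with SCML4 replicate 1 at the top, EV replicate 3 next and EV replicate 1 at the bottom, so libraries of both groups were interleaved.

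**Figure D2:**
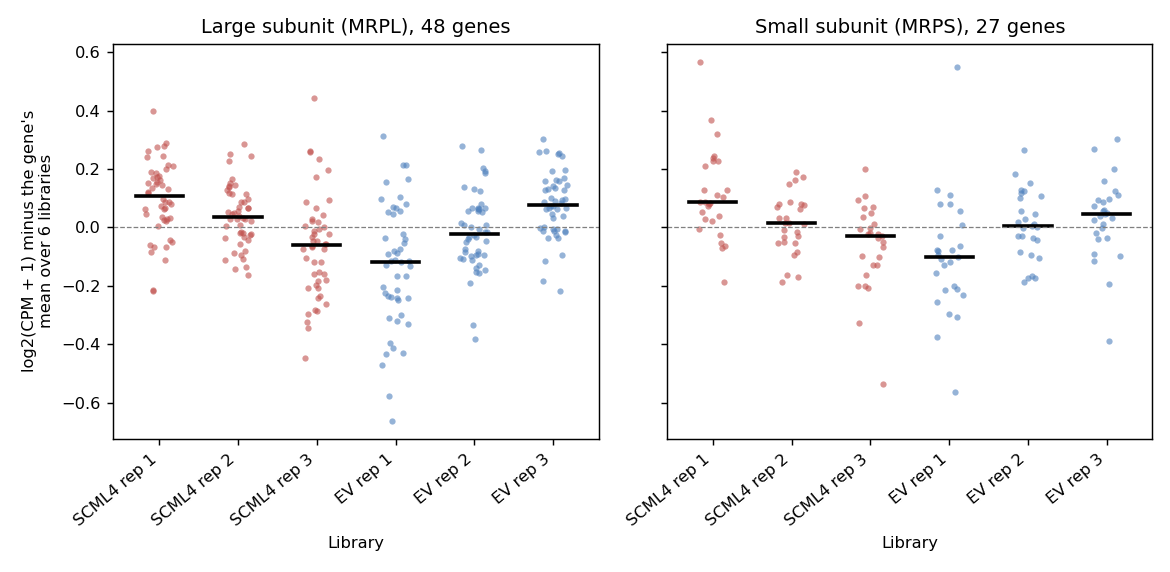
Deviation of each member from its own mean over 6 libraries (log2 of CPM + 1) by library, for 48 large-subunit genes (left) and 27 small-subunit genes (right). Points are genes and bars are medians; the median is lowest in EV replicate 1 (-0.12 large, -0.10 small) and highest in SCML4 replicate 1 (0.11 large, 0.09 small).

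Among the large-subunit members on the higher side, MRPL54, a protein found only in mitochondrial ribosomes, was the one with the smallest p. It stood at 15.1, 15.4 and 13.1 CPM in SCML4, against 10.4, 11.0 and 10.5 CPM in EV. The groups did not overlap, with a log2 difference of 0.41 (SE 0.14, 95% interval 0.11 to 0.71), an unadjusted p of 0.0111 and an adjusted p of 0.866 by limma-trend. Without EV replicate 1 the difference was 0.39, with an adjusted p of 0.631 by limma-trend. MRPL12, the homologue of the bacterial stalk protein, is also known to bind the mitochondrial RNA polymerase in human cells. It stood at 15.0, 11.7 and 17.0 CPM in SCML4, against 8.82, 11.8 and 10.6 CPM in EV. The SCML4 library of replicate 2 lay just below the highest EV library, and the log2 difference was 0.44 (SE 0.17) with an unadjusted p of 0.0208 by limma-trend. Without EV replicate 1 the MRPL12 difference was 0.33, with an unadjusted p of 0.0601 by limma-trend. After a correction of each library for GC content and exon length, MRPL54 differed by 0.32 and MRPL12 by 0.33. An overlapping gene on the same strand shares 68.2% of the MRPL12 exon bases, so its reads could be split between them.

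MRPL28, which has a bacterial homologue, showed how much 1 library weighs. It stood at 46.3, 48.9 and 53.3 CPM in SCML4, against 29.3, 41.7 and 50.7 CPM in EV. EV replicate 1 was far below the others, and the log2 difference of 0.31 became 0.10 without it. MRPL37, found only in mitochondrial ribosomes, stood at 134, 122 and 114 CPM in SCML4 and 92.1, 114 and 120 CPM in EV, and its difference of 0.18 became 0.07 without EV replicate 1. MRPL16, which has a bacterial homologue and sits near the site of peptide bond formation, stood at 111, 111 and 108 CPM in SCML4 and 93.2, 101 and 105 CPM in EV. These groups did not overlap, with a difference of 0.15 (SE 0.08). MRPL41 stood at 65.1, 48.2 and 46.9 CPM in SCML4 and 42.5, 42.9 and 52.3 CPM in EV, with overlap and a difference of 0.20. This became 0.056 without SCML4 replicate 1 and 0.062 after a correction of each library for GC content and exon length.

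On the lower side of the large subunit no member had groups apart. MRPL39, found only in mitochondrial ribosomes, stood at 9.60, 13.4 and 8.04 CPM in SCML4, against 13.3, 13.0 and 11.7 CPM in EV, with a log2 difference of -0.29 (SE 0.18). SCML4 replicate 2 was the highest of all 6 libraries, so the groups overlapped, and the difference was -0.48 without it and -0.14 without SCML4 replicate 3. MRPL3, a homologue of a bacterial protein near the catalytic centre, stood at 90.4, 87.7 and 72.8 CPM in SCML4 and 90.2, 87.2 and 98.4 CPM in EV. MRPL18, which has a bacterial homologue, stood at 89.5, 85.9 and 69.1 CPM in SCML4 and 79.5, 87.5 and 96.6 CPM in EV. In both genes SCML4 replicate 3 was the low library, and without it the difference of MRPL3 was -0.04, against -0.14 with all libraries, and that of MRPL18 was 0.0010, against -0.11. Without EV replicate 1 the difference of MRPL18 was -0.18. MRPL42 stood at 160.3, 167 and 149 CPM in SCML4 and 193, 166 and 164 CPM in EV, with a difference of -0.13 that became -0.06 without EV replicate 1. MRPL48 and MRPL19 differed by -0.18 (SE 0.18) and -0.08 (SE 0.08).

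In the small subunit the members nearest to a difference were MRPS34 and MRPS22, both found only in mitochondrial ribosomes and both known from inherited disorders of mitochondrial translation. MRPS34 stood at 50.7, 50.2 and 54.4 CPM in SCML4, against 31.6, 51.5 and 48.8 CPM in EV. EV replicate 1 was again far below the rest, and the log2 difference of 0.26 (SE 0.15) became 0.05 without it. MRPS22 stood at 32.8, 33.3 and 30.2 CPM in SCML4, against 25.6, 27.8 and 30.6 CPM in EV, with a difference of 0.19 (SE 0.11). Its highest EV library lay just above its lowest SCML4 library. MRPS27, a protein with pentatricopeptide repeats, had groups that did not overlap, at 144, 141 and 149 CPM in SCML4 against 125, 141 and 140 CPM in EV. Its difference was only 0.10 (SE 0.08), and the nearest libraries of the groups were at the same rounded value. MRPS31 and MRPS16 differed by 0.11 (SE 0.11) and 0.08 (SE 0.08).

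The MRPS18 paralogues, 3 human genes descended from the gene of a single bacterial protein, did not lie on the same side. Only MRPS18B and MRPS18C could be fitted, because MRPS18A was below the filter, as given above. MRPS18B stood at 67.0, 61.1 and 55.7 CPM in SCML4, against 50.1, 64.3 and 50.3 CPM in EV, with overlap and a log2 difference of 0.16 (SE 0.11). MRPS18C stood at 5.96, 8.03 and 4.47 CPM in SCML4, against 10.6, 6.02 and 7.85 CPM in EV, with overlap and a difference of -0.36 (SE 0.22). The MRPS18C difference became -0.17 without EV replicate 1, and whether the paralogues differ from each other was not tested. MRPS18C shares 40.2% of its exon bases with ABRAXAS1 on the opposite strand, and its 3 pseudogene rows held 745 reads over the 6 libraries, against 409 of its own.

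The other named small-subunit members on the lower side were MRPS5, MRPS28, MRPS21, MRPS25 and MRPS30. MRPS5, on its second row, stood at 48.3, 43.9 and 50.5 CPM in SCML4 and 51.3, 48.3 and 53.8 CPM in EV, with overlap and a log2 difference of -0.10 (SE 0.10). MRPS28 stood at 16.7, 11.4 and 10.3 CPM in SCML4 and 11.2, 14.2 and 16.4 CPM in EV, with overlap and a difference of -0.13 (SE 0.19). Its difference turned on single libraries, with -0.27 without EV replicate 1, -0.32 without SCML4 replicate 1 and 0.0030 without SCML4 replicate 3. It shares 35.8% of its exon bases with another gene on the same strand. MRPS21 and MRPS25 differed by -0.04 and -0.03. The structures of the human mitochondrial ribosome place MRPS30, like MRPS18A, in the large subunit despite the name. MRPS30 differed by -0.04 with all libraries and by 0.02 without EV replicate 1.

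**Figure D3:**
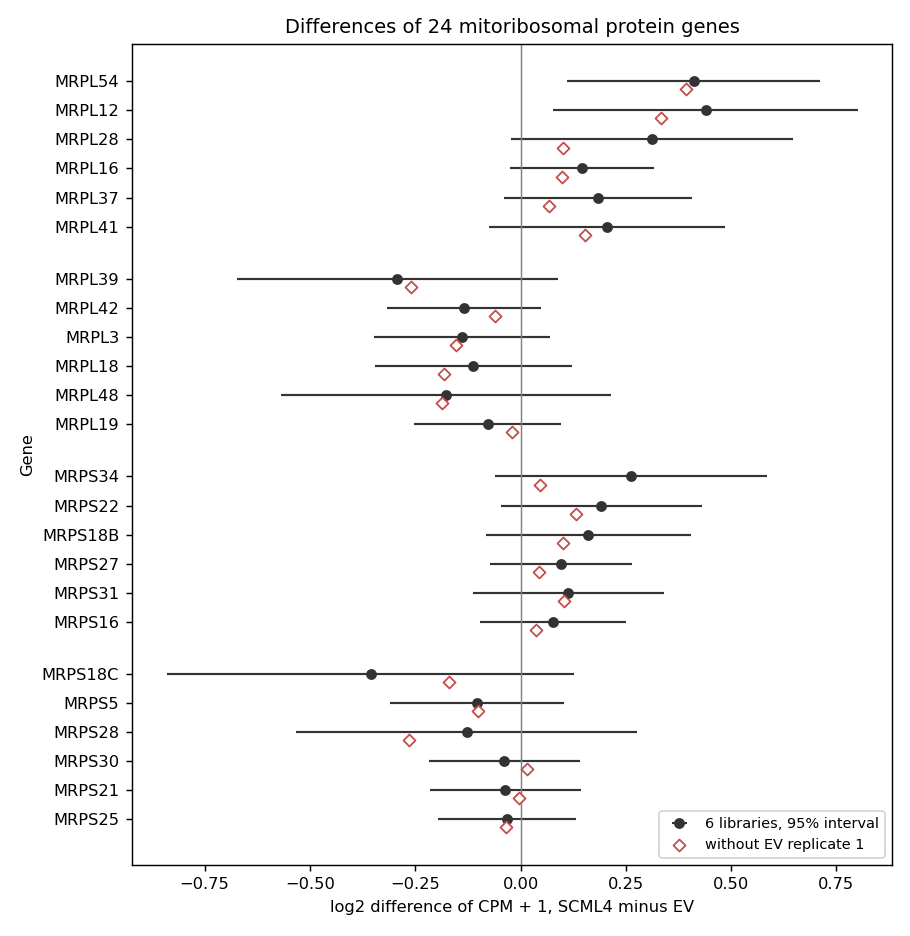
Log2 difference of CPM + 1, SCML4 minus EV, for the 6 members of smallest p in each subunit and direction. Filled points are the limma-trend estimates from 6 libraries with 95% intervals, and open diamonds are the estimates without EV replicate 1; the intervals of MRPL54 and MRPL12 lie above 0 and those of the other 22 genes cross it.

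Members with groups apart were counted beside the share of all genes, and no difference between them was tested. The 3 values of SCML4 all lay above the 3 of EV in 3 of 75 members (MRPL54, MRPL16 and MRPS27), against 6.29% of all genes, and all below in 0 of 75, against 5.36% of all genes. In the absence of EV replicate 1 they lay above in 5 members, against 12.1% of all genes, and below in 2 members, against 10.0% of all genes. The 4 members added, chosen after their values were seen, were MRPS14 and MRPL35 on the higher side and MRPL4 and MRPL38 on the lower. MRPL4, which has a bacterial homologue, stood at 26.5, 25.5 and 32.5 CPM in SCML4, against 21.0, 35.0 and 34.5 CPM in EV. EV replicate 1 was the lowest library and the other EV libraries were above all 3 SCML4 libraries, and the log2 difference was -0.07 with EV replicate 1 and -0.30 without it. The second value had an unadjusted p of 0.0200 and an adjusted p of 0.641 by limma-trend. With EV replicate 1 left out, 2 members had an unadjusted p under 0.05, MRPL54 and MRPL4, against 6.70% of all genes, and 0 of 75 members passed the adjusted threshold, against 0.0990% of all genes.

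**Figure D4:**
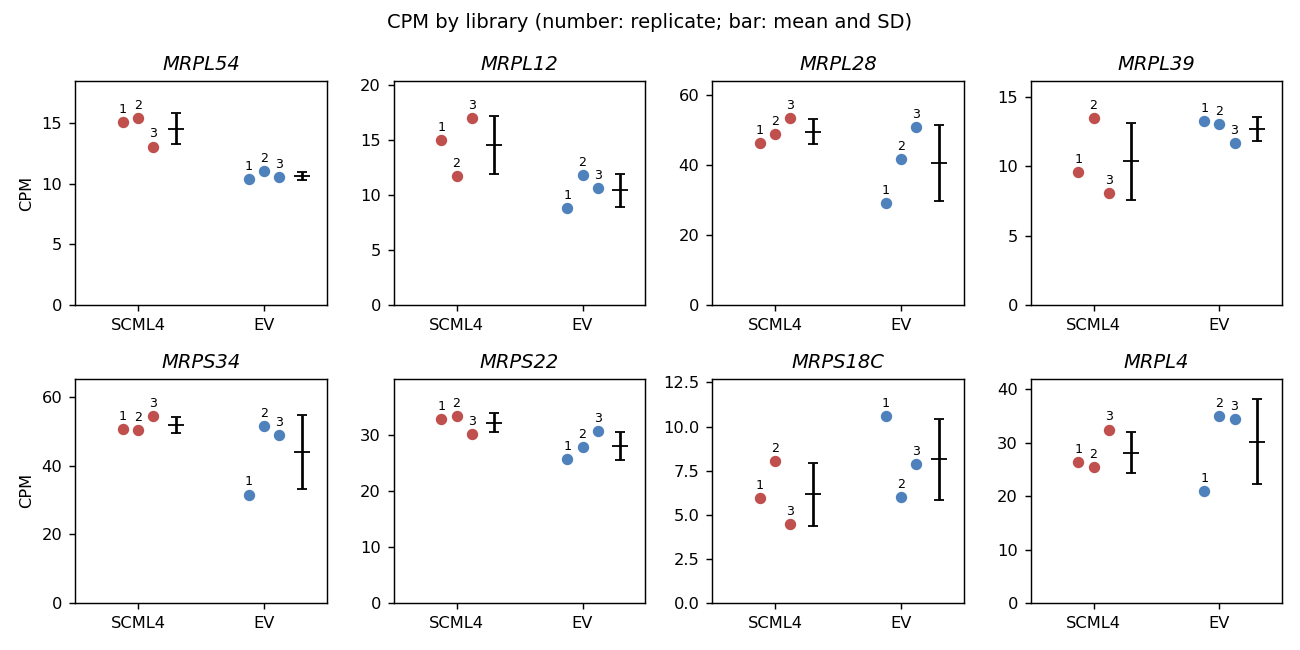
CPM of 8 members in the SCML4 libraries (left) and the EV libraries (right of each panel), on axes from 0. Numbers are replicates, and the bar is the mean with its SD over 3 libraries. EV replicate 1 is the lowest EV library of MRPL54, MRPL12, MRPL28, MRPS34, MRPS22 and MRPL4, and the highest of MRPL39 and MRPS18C. The groups are apart in MRPL54.

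The differences followed the base composition of the transcripts as long as EV replicate 1 was included. Over the 75 members, which share the same libraries, the Spearman correlation of a gene's difference with the GC content of its longest transcript was 0.46, against 0.34 over 14148 genes. It was 0.55 over the 48 large-subunit genes and 0.22 over the 27 small-subunit genes. Without EV replicate 1 it was 0.07 over the members and 0.02 over all genes. The 19 members with at least 55% GC had a median log2 difference of 0.12, which became 0.01 without EV replicate 1. The 26 members between 45% and 55% GC had 0.09 and 0.02, and the 30 members under 45% had -0.02 and -0.03. In EV replicate 1 the deviation of a member correlated with its GC content at -0.66, and in SCML4 replicate 3 at 0.41. After each library was corrected for GC content and exon length, the medians were 0.03 for the large and 0.05 for the small subunit, with 47 of 75 members above 0, while 56.1% of all genes were above 0 after the same correction, with a median of 0.02. The median GC content was 49.8% in the large and 45.5% in the small subunit.

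**Figure D5:**
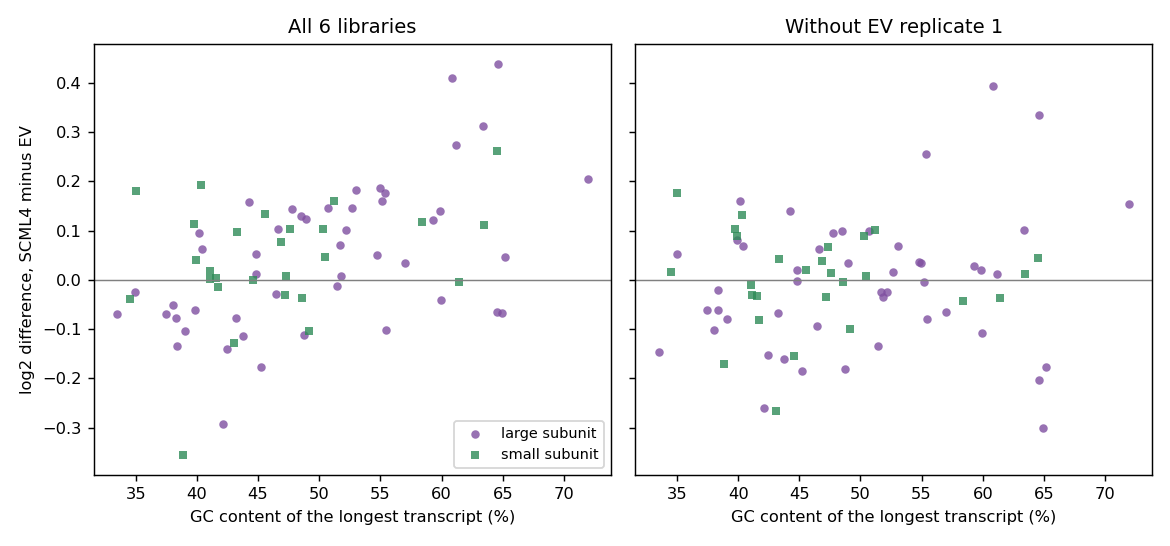
Log2 difference, SCML4 minus EV, of each of 75 members against the GC content of its longest transcript (%), with all 6 libraries (left) and without EV replicate 1 (right). Circles are large-subunit and squares small-subunit genes; the Spearman correlation is 0.46 on the left and 0.07 on the right.

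The members were also grouped by the descent of the proteins, and all genes tested had 52.4% above 0. Among the large-subunit members with a bacterial homologue 15 of 28 had a difference above 0, with a median of 0.03, and among those found only in mitochondrial ribosomes 13 of 20, with a median of 0.06. In the small subunit these were 11 of 16, with a median of 0.02, and 7 of 10, with a median of 0.06. With EV replicate 1 left out, 12 of 28 and 11 of 20 large-subunit members were above 0, with medians of -0.02 and 0.02. In the small subunit 8 of 16 and 6 of 10 were, with medians of 0.0019 and 0.01. MRPS36, now known as a subunit of the 2-oxoglutarate dehydrogenase complex, was left out of this grouping.

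Reads of pseudogenes could touch some members. For 36 of the 78 symbols the table also held pseudogene rows, 79 in all, and for 5 symbols these rows held more reads than the gene. The largest case, chosen after its values were seen, was MRPL3P1, with 8391 reads over 6 libraries against 4982 for MRPL3. MRPL3P1 stood at 158, 144 and 142 CPM in SCML4 and 131, 148 and 167 CPM in EV, with a log2 difference of 0.0024. MRPL48P1, also chosen after its values were seen, held 574 reads against 273 for MRPL48. It stood at 9.16, 9.96 and 6.37 CPM in SCML4 and 12.5, 10.3 and 12.3 CPM in EV. Its groups did not overlap, as on the lower side in 5.36% of all genes. Its difference was -0.43, with an unadjusted p of 0.0298 and an adjusted p of 0.866 by limma-trend. MRPL30P1, with 903 reads against 4949 for MRPL30, went the other way. Its groups did not overlap either, and its difference was 0.27, with an unadjusted p of 0.0713 by limma-trend. How reads were divided between a gene and its copy is not given in the sources used here, so MRPL3, MRPL48, MRPS18C and MRPS36 are uncertain. For MRPS36, chosen after its values were seen, 5 pseudogene rows held 1257 reads against 483 of its own.

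The genes that work with the mitochondrial ribosome gave no member past the adjusted threshold in any list. Their counts above 0 stand beside 52.4% of all genes, and 51.7% without EV replicate 1. Of 5 mitoribosomal proteins under other symbols, 2 had a difference above 0, with a median of -0.04. AURKAIP1, a small-subunit protein, stood at 77.7, 68.8 and 69.1 CPM in SCML4 and 40.5, 62.9 and 70.6 CPM in EV. It differed by 0.34 with all libraries and by 0.11 without EV replicate 1, as in MRPL28 and MRPS34, and GADD45GIP1, a large-subunit protein, differed by 0.19 and by -0.0017. Of 26 fitted genes for assembly and rRNA modification, 17 were above 0, with a median of 0.07, and 15 without EV replicate 1, with a median of 0.02. MTG2 and ERAL1, GTPases that act in the assembly of the large and the small subunit, differed by 0.22 and 0.20, and by 0.21 and 0.10 without EV replicate 1. Of 18 translation factors 8 were above 0, with a median of -0.01. TUFM, the mitochondrial elongation factor Tu, differed by 0.23 with and without EV replicate 1, and PDF, which removes formyl groups from new peptides, by 0.36 and 0.16. Of 20 mitochondrial aminoacyl-tRNA synthetases 12 were above 0, with a median of 0.05, and 11 without EV replicate 1, with a median of 0.0042. RARS2 and TARS2, for arginine and threonine, differed by -0.24 and 0.13, and by -0.15 and 0.14 without EV replicate 1. Of 11 regulators of mitochondrial biogenesis 1 was above 0, with a median of -0.05, and 5 were without EV replicate 1. PPARGC1B, a transcriptional coactivator, and ESRRA, a nuclear receptor, differed by -0.18 and -0.10, and by -0.25 and -0.18 without EV replicate 1.

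The mitochondrial genome encodes the mRNAs that this ribosome reads and the rRNAs it contains. The 13 mitochondrially encoded mRNAs summed to 48989, 50246 and 49860 CPM in SCML4, against 52820, 54292 and 52226 CPM in EV. The sums of the groups did not overlap. Of the 13 mRNAs 10 had a difference below 0, while 52.4% of all genes were above 0. The median was -0.09 with and without EV replicate 1. Groups were apart on the lower side in 3 of 13, against 5.36% of all genes. By limma-trend 0 of 13 passed the test or had an unadjusted p under 0.05, against 5.27% of all genes at that p. These mRNAs share the same libraries, and whether they differ from all genes was not tested. MT-ND4 and MT-ND4L, subunits of respiratory complex I, differed by -0.15 (SE 0.10) and -0.19 (SE 0.13). MT-RNR1, the rRNA of the small subunit, stood at 1181, 1002 and 1252 CPM in SCML4 and 687, 1326 and 1262 CPM in EV. MT-RNR2, the rRNA of the large subunit, stood at 5517, 5732 and 6526 CPM in SCML4 and 4642, 6422 and 6555 CPM in EV. Both were low in EV replicate 1, and the differences of 0.12 and 0.03 became -0.18 and -0.13 without it.

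Cytosolic ribosomal proteins, the counterpart family of the cytosol, were also more often above 0 than below it, and this held without EV replicate 1. Of 83 fitted genes 58 were above 0, with a median of 0.08, against 52.4% of all genes. Without EV replicate 1 there were 61, with a median of 0.11, against 51.7% of all genes. At an unadjusted p under 0.05 there were 8, all higher, against 3.34% of all genes on that side, and 0 passed the adjusted threshold by limma-trend. RPL38 and RPL8, of the large cytosolic subunit, differed by 0.47 (SE 0.10) and 0.55 (SE 0.12), with adjusted p of 0.727 and 0.737 by limma-trend. Their summed level was 10236, 10032 and 8577 CPM in SCML4 and 9382, 8001 and 8938 CPM in EV, so the groups overlapped here too. Whether the cytosolic and the mitochondrial family differ from each other was not tested.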

How the data were processed

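Reads were sequenced from 3 SCML4 and 3 EV libraries, made with TRIzol RNA and a SMARTer mRNA-seq kit, per the labels' protocols. FastQC, STAR, SAMtools and hg19 are named, without versions, per the submitters' processing notes; the sources used here do not name the counting tool, its use of strand or the annotation. The deposited values are FPKM, 1 column per library, per the file headers. Groups and replicate numbers come from the sample titles. The members and gene lists were chosen with earlier results of these data known.

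All 23897 rows above 0 came out as whole reads within 0.002 of a read, and 147 rows were multiplied by a common divisor. Of each library total, 99.63% to 99.64% lay on the rows, with totals searched only in a narrow range above the reads on the rows. The gene lengths behind the FPKM were unrelated to GENCODE 29 exon lengths (Spearman -0.0058 over 14148 genes), so FPKM was not compared between genes. Lengths, GC content and overlaps came from GENCODE 29, which was not used for coordinates; promoters came from RefSeq.

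SCML4 minus EV was tested with limma-trend (limma 3.58.1, R 4.3.3) on log2(CPM + 1) for the 14160 genes averaging 10 reads or more, adjusted by Benjamini-Hochberg, threshold 0.05, and checked on simulated data. Exact permutation of 3 against 3 libraries cannot give a p below 0.1 and was not used. A count of 0 allows up to 3 reads, counting error only. Named members were the 6 of smallest p per subunit and direction, the 2 highest and 2 lowest levels per subunit, the MRPS18 paralogues, members below the filter and up to 2 genes per companion list; any other gene was chosen after its values were seen. Alternatives were other pseudocounts, filters, scalings, limma-voom, FPKM, a GC and length correction, a replicate block and leaving out each library. Libraries with the same replicate number did not deviate together (correlations -0.06, -0.11 and -0.05), so numbers were not used to pair them. No libraries of a group agreed within sampling noise.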

Additional observations from a re-analysis of the deposited data

How the results depend on the processing

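No member passed the adjusted threshold under any of the 19 alternatives run by gene, the lowest adjusted p of a named member being 0.347. Of 455 values of named members, 449 kept their direction. With the GC and length correction 0 members were called. MRPS30, at -0.04, was 0.022 with library weights in limma-voom and 0.057 with the GC and length correction, with or without the replicate block. When each library was left out in turn, MRPS30 ran between -0.079 and 0.016, MRPL18 between -0.18 and 0.0010, and MRPS28 between -0.32 and 0.0030. The count at an unadjusted p under 0.05, which was 2, was 1 on log2(FPKM + 1) and 1 under the replicate block with the GC and length correction. It ran between 1 and 8 over the libraries left out, with 6 without EV replicate 2, 8 without EV replicate 3 and 1 without SCML4 replicate 1. Members with groups apart, 3 of 75, were 5 when every gene above 0 was kept and 7 to 16 with 1 library left out, where fewer values have to be in order. For the fits with 1 library left out, shares of all genes for both counts were worked out only without EV replicate 1. Counts without any other library therefore have no share to be read against. The median of the large subunit ran between -0.0068 and 0.11 and that of the small between -0.020 and 0.09. The replicate block called 0 members, with 3 at an unadjusted p under 0.05, and called 2 of all genes against 1 in the main fit. A limma-voom fit without EV replicate 1, added after seeing the data, also called 0 members. With 3 libraries per group, differences of single members above 0.4 on the log2 scale, as in MRPL54 (0.41) and MRPL12 (0.44), did not pass the adjusted threshold.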
